A study of Mus musculus with 12 samples.

Results

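The Hox genes of the HoxA, HoxB, HoxC and HoxD clusters were examined in mouse embryonic stem cells (mESCs) by poly(A) RNA-seq. A gene was included when its mouse symbol was Hox followed by a cluster letter from a to d and a number, whatever its level. Described here are 38 such genes, 10 in HoxA, 10 in HoxB, 9 in HoxC and 9 in HoxD. Of these, 37 had an entry of their own in the deposited table of 39017 genes, the exception being Hoxd4. The 12 libraries came from 2 male mESC lines, J1 and 3B3-3l (also written 3B3L), each grown in serum or in 2i. The 4 groups held 3 biological replicates each. J1 is wild type. The 3B3-3l line is Dnmt3a-/- and Dnmt3b-/-, and carries a Dnmt3b transgene and a Dnmt3l transgene, each driven by the constitutive CAG promoter, the latter selected with blasticidin. DNMT3A and DNMT3B are the de novo DNA methyltransferases and DNMT3L is their catalytically inactive partner. All groups received LIF. The 2i medium was serum-free and held 1 uM PD0325901, a MEK inhibitor, and 3 uM CHIR99021, a GSK3 inhibitor. In serum, J1 cells grew on inactivated SNLP feeder cells, which were depleted before analysis by repeated plating, and 3B3-3l cells grew on gelatin, so that line and culture surface cannot be told apart in that medium. Feeders were also depleted for the conversion to 2i, so that in J1 medium and feeder culture cannot be told apart.

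Hox genes encode homeodomain transcription factors that give cells their position along the head-to-tail axis of the embryo. Each mammalian cluster holds its genes in the order in which they act along that axis, with low-numbered genes at the 3' end, used in anterior regions, and high-numbered genes at the 5' end, used in posterior regions. Genes with the same number in different clusters are paralogues. In mESCs the clusters are classical targets of Polycomb repressive complexes, which mark them with H3K27me3 and hold them compact and nearly silent. The study measured chromatin compaction at HoxD between probes at Hoxd3 and Hoxd13, and asked how DNA methylation bears on Polycomb targets. In another mESC line it also measured HoxB between probes at Hoxb1 and Hoxb13 and HoxC between probes at Hoxc4 and Hoxc13. Contacts within all Hox clusters were measured there by Hi-C, a genome-wide assay of contacts between DNA sites. The paper reports that cells grown with the inhibitors lost contacts significantly at HoxA, HoxB and HoxC and not at HoxD.

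Libraries held 37050652 to 44515395 estimated reads. CPM are counts in a library scaled to 1 M reads, its size corrected by TMM factors. A count of 3 in a library, taken here as the floor of detection, corresponded to 0.0674 to 0.081 per 1 M reads of the uncorrected library totals. Such floors and the intervals given below cover counting error only. All 12 listed markers of mESCs were detected, with a summed level of 5400 to 8270 CPM in a library. Because these are bulk samples, fewer cells with a transcript and less of it per cell cannot be told apart.

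Hox transcripts were rare in every group and rarest in serum. The summed level of all 37 genes was 5.07 ± 0.46 CPM in J1 serum and 5.78 ± 0.396 CPM in 3B3-3l serum, against 26.2 ± 0.511 CPM in J1 2i and 29.8 ± 0.388 CPM in 3B3-3l 2i (SD, n = 3). The 2i libraries, at 25.7 to 30.2 CPM, did not overlap the serum libraries, at 4.55 to 6.19 CPM. Most of the rise lay in HoxC. This cluster summed to 1.73 ± 0.0909 CPM in serum-grown J1 and 17.5 ± 0.609 CPM in J1 2i, and to 3 ± 0.339 and 19.2 ± 0.492 CPM in 3B3-3l (SD, n = 3). The mean in 2i was 10.1 times that in serum in J1 and 6.4 times in 3B3-3l. HoxC thus held 34% of all Hox reads in J1 serum and 66.7% in J1 2i, and 52% and 64.5% in 3B3-3l.

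The other clusters had lower sums. HoxB went from 1.46 ± 0.297 CPM in serum to 4.45 ± 0.2 CPM in 2i in J1, and from 1.5 ± 0.35 to 6.77 ± 0.377 CPM in 3B3-3l. HoxD, summed over the 8 entries that include Hoxd3, went from 0.919 ± 0.202 to 2.13 ± 0.273 CPM in J1, and the 3B3-3l sum moved from 0.739 ± 0.197 to 2.65 ± 0.306 CPM. HoxA was the lowest of the clusters in 3B3-3l, with 0.536 ± 0.0642 CPM under serum and 1.18 ± 0.138 CPM in 2i, and stood at 0.965 ± 0.105 and 2.14 ± 0.252 CPM in J1 (SD, n = 3 throughout). The ratio of 2i to serum was 2.22 in J1 and 2.2 in 3B3-3l for HoxA, 3.05 and 4.51 for HoxB, and 2.32 and 3.59 for HoxD. Single genes weighed on these ratios. Without Hoxa7 the HoxA sum in 3B3-3l went from 0.414 to 0.504 CPM. Without Hoxb9 the HoxB sum in J1 went from 0.999 to 2.02 CPM. Without Hoxc13 the HoxC sum went from 0.467 to 8.54 CPM in J1, while that of 3B3-3l went from 0.74 to 9.85 CPM, a larger rise in proportion than with it. No p is given for these sums, since the genes were chosen with earlier results of these data known.

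**Figure D1:**
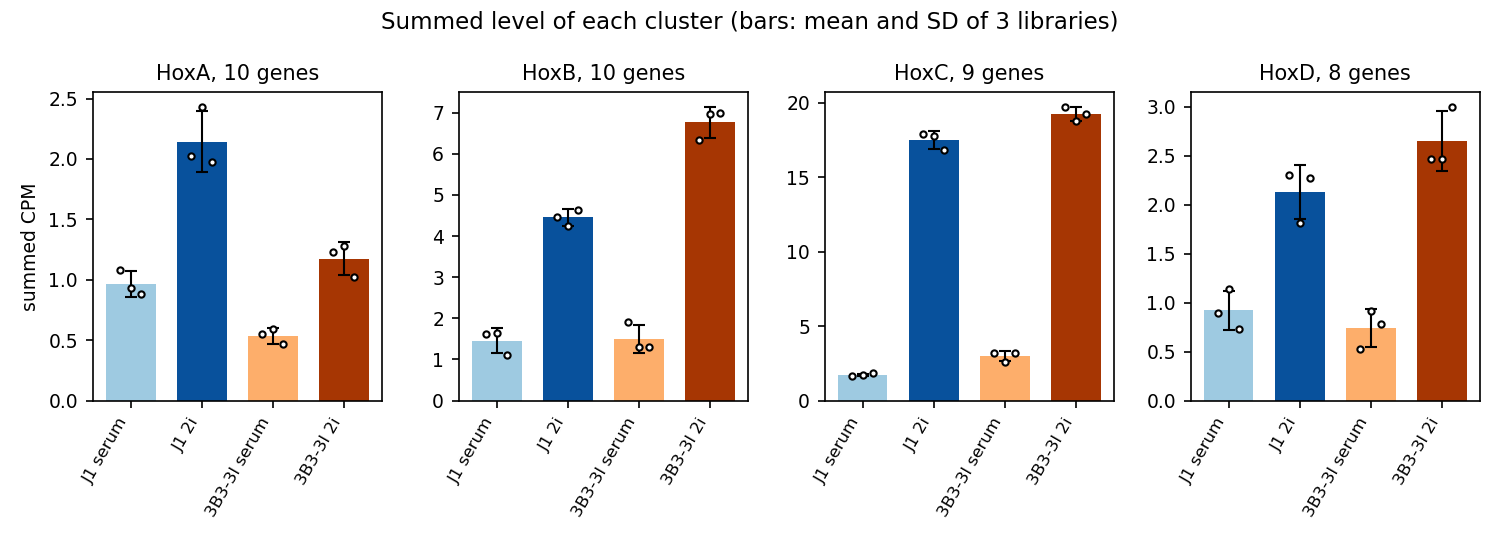
Summed CPM of each Hox cluster by group, with each library as a point, the mean as a bar and the SD as an error bar (n = 3; each panel has its own axis from 0). In each cluster the 3 libraries in 2i lay above the 3 serum libraries of the same line, and HoxC reached 17.5 CPM in J1 2i and 19.2 CPM in 3B3-3l 2i.

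Many members could not be resolved at this depth. A member was taken to be at the floor in a group when each of its 3 libraries held at most 3 counts. That was so for 16 of 37 members in J1 serum, 13 in 3B3-3l serum, and 10 in each line in 2i. Hoxa11, Hoxb3, Hoxb5, Hoxb6, Hoxd10 and Hoxd12 were at the floor in all 12 libraries, so any difference in them was not detectable here. HoxC changed most by this measure in J1, from 7 of its 9 genes at the floor in serum to 0 in 2i, and from 2 to 0 in 3B3-3l. HoxB went the other way, from 3 of 10 to 6 of 10 in J1 and from 4 to 5 in 3B3-3l. Those added in J1 were Hoxb1, Hoxb2 and Hoxb8, with at most 8 reads in any library, and 0 HoxB members were called lower in 2i. Among the 7 anterior members, numbered 1 to 3, the floor held 1 in serum in each line, and 4 in J1 2i and 2 in 3B3-3l 2i.

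**Figure D2:**
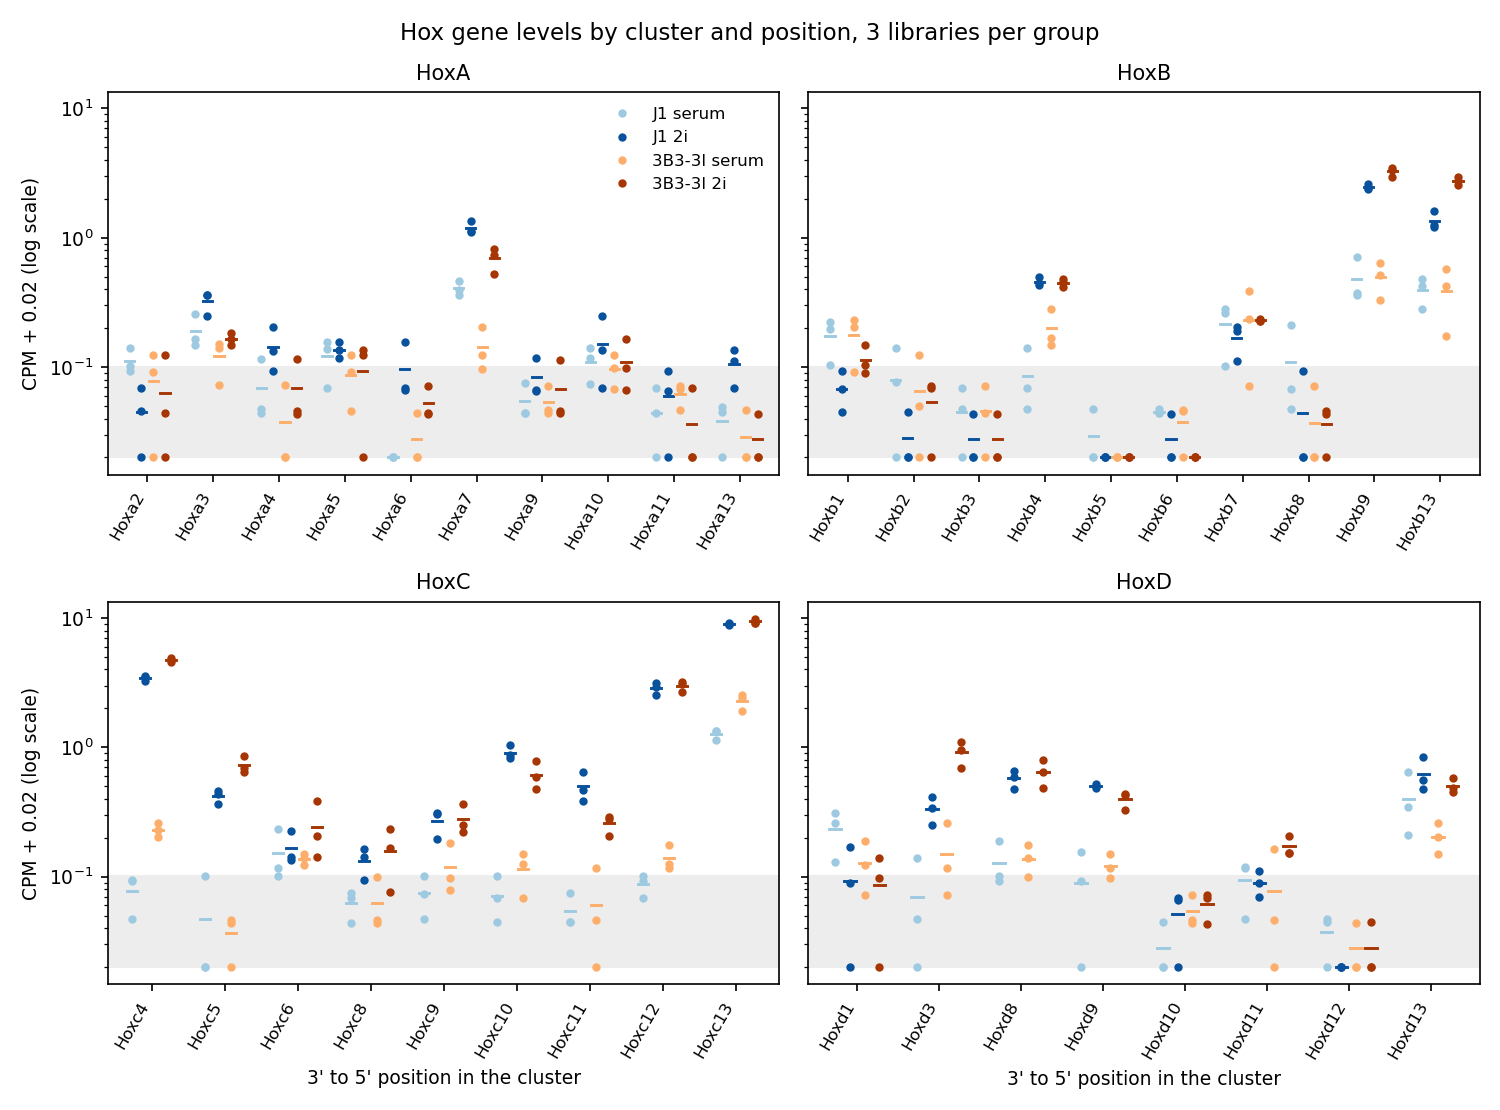
CPM of 37 Hox genes in each of the 12 libraries, plotted as CPM + 0.02 on a log axis, with genes in order from the 3' to the 5' end of each cluster, points for libraries and short bars for group means; grey marks the range under a floor of 3 counts. In 2i the highest points are Hoxc4, Hoxc12, Hoxc13, Hoxb9 and Hoxb13, and the Hoxd3 entry includes reads of Hoxd4 transcripts.

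Position within the cluster did not sort the levels in a simple gradient. Levels were compared between genes as reads per kilobase of effective transcript length per 1 M reads (RPKM), summed over the transcripts of a gene. In J1 2i the highest were Hoxc13 (3.92 ± 0.0704), Hoxc12 (3.33 ± 0.372), Hoxc4 (1.85 ± 0.0848) and Hoxb9 (1.1 ± 0.0655 RPKM, SD, n = 3). The same 4 genes led in 3B3-3l 2i, at 4.09 ± 0.157, 3.43 ± 0.361, 2.56 ± 0.118 and 1.47 ± 0.137 RPKM, followed by Hoxb13 at 1.34 ± 0.0887 RPKM. Hoxc13 and Hoxc12 differed by less than 2 times the larger SD in both lines, and so did Hoxb9 and Hoxb13 in 3B3-3l. High levels thus stood at both ends of HoxC, with low ones between. Hoxc6, at 0.176 ± 0.0844 RPKM in J1 2i and 0.232 ± 0.162 RPKM in 3B3-3l 2i, Hoxc8, at 0.0534 ± 0.0166 and 0.0649 ± 0.0365 RPKM, and Hoxc9, at 0.114 ± 0.0294 and 0.118 ± 0.0342 RPKM, form that middle stretch. In serum Hoxc13 led in both lines, with 0.549 ± 0.0507 RPKM in J1 and 0.99 ± 0.145 RPKM in 3B3-3l. The next in J1 serum, Hoxb9 (0.222 ± 0.0711), Hoxa7 (0.21 ± 0.0276), Hoxb13 (0.184 ± 0.0493) and Hoxb7 (0.174 ± 0.0882 RPKM), did not differ beyond their SD.

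Start regions of a few members are shown for their CpG sites, the dinucleotides that DNA methyltransferases act on. RefSeq start regions on GRCm38.p6 (mm10), from 250 bases before to 50 bases after a start, were at hand for 22 of the 38 members (24 regions of 300 bases). Hoxc13, Hoxc12, Hoxb9 and Hoxb13 were not among them. Given here, for each cluster, is the member with the highest RPKM in J1 2i among those with a region at hand, together with Hoxd4 and Hoxd13. Hoxb4, chosen in this way, was low (0.11 ± 0.00934 RPKM). CpG dinucleotides are in capitals. The regions are chr6:52218524-52218823 on the minus strand for Hoxa7, and on the plus strand chr11:96318017-96318316 for Hoxb4, chr15:103034145-103034444 for Hoxc4, chr2:74721728-74722027 for Hoxd4, chr2:74704365-74704664 for Hoxd8 and chr2:74667975-74668274 for Hoxd13. The Hoxc4 region lies inside the annotated span of the gene.
Hoxa7: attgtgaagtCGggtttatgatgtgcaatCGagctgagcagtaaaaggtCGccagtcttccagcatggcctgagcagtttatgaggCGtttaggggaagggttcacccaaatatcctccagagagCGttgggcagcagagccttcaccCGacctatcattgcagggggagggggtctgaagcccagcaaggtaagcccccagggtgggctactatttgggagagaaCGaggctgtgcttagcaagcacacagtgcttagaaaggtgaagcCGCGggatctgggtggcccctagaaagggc
Hoxb4: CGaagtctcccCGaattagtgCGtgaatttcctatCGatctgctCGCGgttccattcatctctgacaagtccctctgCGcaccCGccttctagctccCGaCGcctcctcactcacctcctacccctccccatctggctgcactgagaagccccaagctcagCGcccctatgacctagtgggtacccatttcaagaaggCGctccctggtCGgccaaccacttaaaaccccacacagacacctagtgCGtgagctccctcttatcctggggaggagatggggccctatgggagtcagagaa
Hoxc4: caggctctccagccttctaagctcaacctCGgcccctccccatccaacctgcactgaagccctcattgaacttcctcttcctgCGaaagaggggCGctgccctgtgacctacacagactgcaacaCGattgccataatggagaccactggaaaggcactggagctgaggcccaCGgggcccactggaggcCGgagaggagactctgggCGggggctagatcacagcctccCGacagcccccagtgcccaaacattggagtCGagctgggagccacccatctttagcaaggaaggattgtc
Hoxd4: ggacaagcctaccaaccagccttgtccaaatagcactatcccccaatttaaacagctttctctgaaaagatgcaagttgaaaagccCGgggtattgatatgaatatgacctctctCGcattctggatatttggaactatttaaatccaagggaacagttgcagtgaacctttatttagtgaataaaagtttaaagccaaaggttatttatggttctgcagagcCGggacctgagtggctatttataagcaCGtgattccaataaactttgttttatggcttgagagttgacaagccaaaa
Hoxd8: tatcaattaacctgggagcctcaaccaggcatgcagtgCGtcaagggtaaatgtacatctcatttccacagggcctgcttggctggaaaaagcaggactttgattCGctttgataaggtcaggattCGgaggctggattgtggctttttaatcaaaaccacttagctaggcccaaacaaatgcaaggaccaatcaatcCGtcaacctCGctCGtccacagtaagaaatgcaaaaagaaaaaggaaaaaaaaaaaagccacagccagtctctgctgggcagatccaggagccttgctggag
Hoxd13: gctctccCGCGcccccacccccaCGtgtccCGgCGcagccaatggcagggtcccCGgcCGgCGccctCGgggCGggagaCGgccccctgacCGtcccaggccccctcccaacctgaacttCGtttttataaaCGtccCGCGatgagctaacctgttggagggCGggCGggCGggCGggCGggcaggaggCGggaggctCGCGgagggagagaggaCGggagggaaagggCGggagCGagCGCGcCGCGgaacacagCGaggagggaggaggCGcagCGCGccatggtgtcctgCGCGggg
They differ in CpG number. The Hoxd13 region held 37, a number reached by 5.58% of the 32851 mouse regions of this length, and those of Hoxb4, Hoxa7, Hoxc4, Hoxd8 and Hoxd4 held 14, 9, 9, 6 and 4. The median was 14.5 over the 24 Hox regions and 7 over all. At least 20 CpGs were present in 11 of the 24 Hox regions and in 26.5% of all. The most CpG-rich Hox region was that of Hoxa13, with 45, a gene that stayed at no more than 5 counts in any library.

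Short motifs were counted on both strands of the same regions. TTTATG, a core recognised by the caudal factors CDX, was found in 5 of 24 Hox regions (20.8%, against 11.9% of all). It had 2 matches each in Hoxa7, Hoxb8 and Hoxd4, and 1 each in Hoxd3 and Hoxd11. Of these, Hoxb8 and Hoxd11 held at most 8 reads in any library. ATCAAAG, a core recognised by TCF factors of the Wnt pathway, was found in 1 (4.17%, against 3.73% of all), with 2 matches in Hoxd8. TGATTNAT, a PBX and HOX motif, was found in 2 (8.33%, against 3.22% of all), and the DR5 direct repeat of the retinoic acid response element in 0 (0.00913% of all). These are matches of letters and were not tested.

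To ask how single members differed between the media, 2i was compared with serum within each line. In J1 this also compares cells without feeder culture to cells from it. The test was edgeR's quasi-likelihood test over all 17885 genes that passed its filter on low counts, with an adjusted p under 0.05 as the call. Only 16 of the 38 members passed. The filter keeps a gene with enough reads in 3 libraries, so a member silent in serum could enter through its 2i level alone and then had to differ. In J1, 14 members rose and 0 fell. Over all genes tested, 66.1% were called, 33.2% higher and 32.9% lower. In 3B3-3l, 15 rose and 0 fell (32.7% of all genes were called higher and 32.7% lower). Without the filter, all 37 entries were tested, 15 rose in each line and 0 fell. Over the 28952 genes of that fit, 20.2% were called higher and 22.4% lower in J1, and 19.9% and 21.8% in 3B3-3l. The addition in J1 was Hoxa6, with 6, 2 and 2 reads in the 2i libraries and 0 in each serum library. The median fitted log2 fold change of the 37 was 1.25 in J1 and 1.2 in 3B3-3l, against 0 and -0.02 over all genes without the filter. It was 3.69 and 2.4 in HoxC, 1.11 and 1.32 in HoxD, 0.8 and 0.34 in HoxA, and -1.39 and -0.03 in HoxB. Fitted values of members at the floor depend on the prior count of the fit. Members at the floor in both media (6 in J1 and 9 in 3B3-3l) were therefore set to 0, and a group without reads to 3 counts per library. The medians were then 0.77 in J1 and 0.88 in 3B3-3l. By cluster they were 0.64 and 0.16 in HoxA, 0 and 0 in HoxB, and 0.32 and 1.32 in HoxD, with no change for HoxC. Libraries of both media did not overlap in 20 of the 37 members in J1, 17 higher in 2i and 3 lower (over the 17885 genes tested, 34.7% and 34% did so). The 3 lower ones were Hoxa2, Hoxb1 and Hoxb6, none with more than 8 reads in a library. Hoxb6, at the floor in every library, had 1 read in each J1 serum library and 0, 1 and 0 in J1 2i. Its libraries were apart only after scaling to library size. In 3B3-3l there were 15 higher and 0 lower of the 37 (34.9% and 34.7% of all genes tested). The 37 include 21 members that did not pass the filter, so these counts and shares cover unlike sets of genes.

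**Figure D3:**
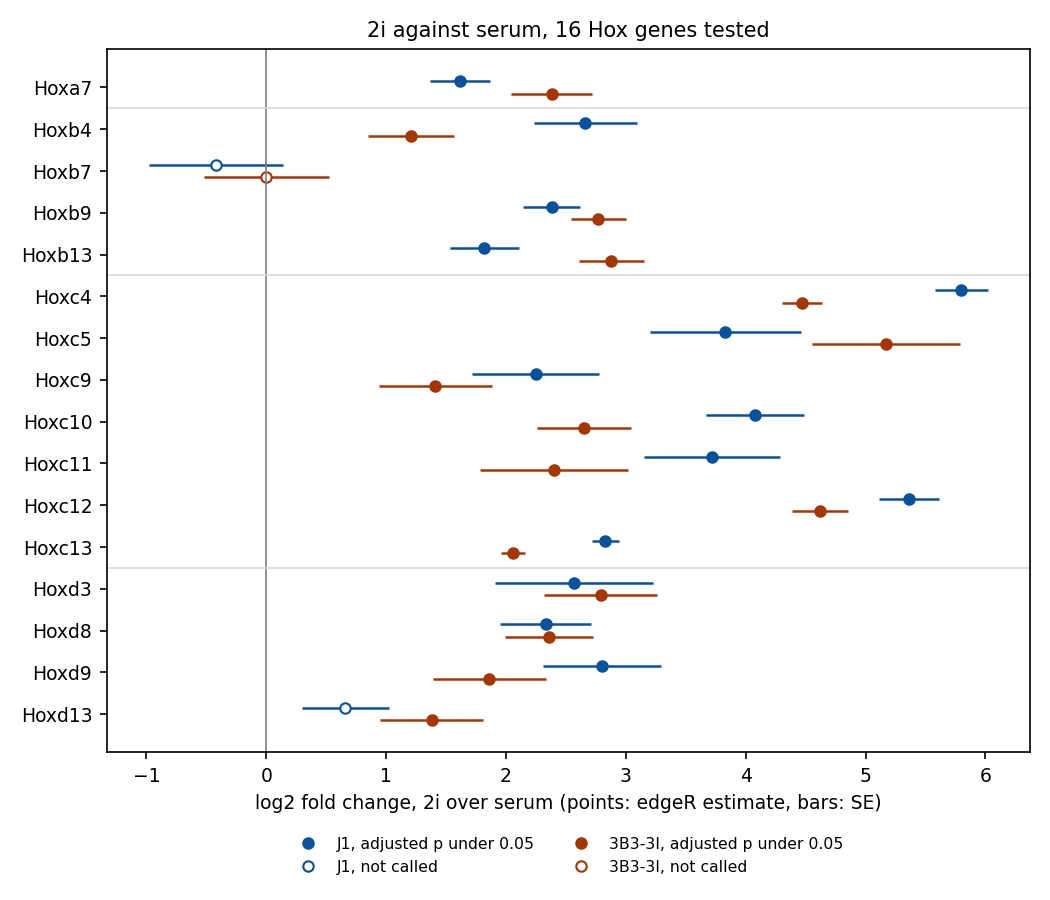
Log2 fold change of 2i over serum with its SE for the 16 Hox genes tested, in J1 (blue) and 3B3-3l (brown), from the edgeR fit to 12 libraries; filled points passed an adjusted p under 0.05 and grey lines part the clusters. HoxC genes span 2.25 to 5.8 in J1 and 1.41 to 5.17 in 3B3-3l, and Hoxb7 lies at or below 0 in both lines.

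HoxC held the largest rises. Hoxc13, which acts in hair and nail formation (ENSMUSG00000001655, chromosome 15, 102921131 to 102928814, mm10), had 47, 55 and 49 reads in the J1 serum libraries and 395, 395 and 361 in J1 2i. In 3B3-3l it had 97, 79 and 92 reads in serum and 408, 396 and 356 in 2i. In neither line did the media overlap. In CPM the 3B3-3l libraries lay above those of J1 in each medium, in 2i by little (9.17 to 9.81 against 8.8 to 9.07 CPM). The J1 mean went from 1.26 ± 0.118 to 8.96 ± 0.136 CPM (log2 fold change 2.83 ± 0.11 SE, edgeR adjusted p = 4.09e-12) and from 2.26 ± 0.335 to 9.39 ± 0.365 CPM in 3B3-3l (2.06 ± 0.1, edgeR adjusted p = 5.47e-11).

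Hoxc12, its neighbour (ENSMUSG00000050328, chromosome 15, 102936826 to 102938609), had 2, 3 and 3 reads in J1 serum, 137, 127 and 103 in J1 2i, 4, 4 and 6 in 3B3-3l serum and 133, 114 and 120 in 3B3-3l 2i. It thus went from the floor or just above it to more than 100 reads in all 6 libraries in 2i. The log2 fold change was 5.36 ± 0.25 in J1 (edgeR adjusted p = 2.64e-11) and 4.62 ± 0.23 in 3B3-3l (edgeR adjusted p = 3.74e-11). The ratio of summed counts in J1, 42.9 with a 95% counting interval of 21.6 to 100, shows how wide the error is when the serum count is 8.

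At the other end of the cluster, Hoxc4, which acts in the cervical and upper thoracic spine (ENSMUSG00000075394, chromosome 15, 103018097 to 103036856), had 3, 3 and 1 reads in J1 serum and 142, 154 and 142 in J1 2i. In 3B3-3l it had 7, 10 and 8 reads in serum and 204, 195 and 182 in 2i. Every 3B3-3l library lay above every J1 library of the same medium. The log2 fold change of 2i over serum was 5.8 ± 0.22 in J1 (edgeR adjusted p = 2.72e-12), with a ratio of counts of 58.6 (95% counting interval 28.2 to 147), and 4.47 ± 0.17 in 3B3-3l (edgeR adjusted p = 2.29e-12).

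Another 4 HoxC genes, Hoxc5, Hoxc9, Hoxc10 and Hoxc11, rose in J1 and in 3B3-3l and held at most 45 reads in a library. Hoxc10, used in the lumbar region and hindlimb, had 6 reads in all in J1 serum and 115 in J1 2i (ratio 17.9, 95% counting interval 8 to 49.9), and rose by 4.08 ± 0.41 in J1 and 2.65 ± 0.39 in 3B3-3l on the log2 scale (edgeR adjusted p = 2.66e-07 and 1.69e-05). Hoxc5, used in motor neurons of the neck, had 2 reads in all in 3B3-3l serum and 88 in 3B3-3l 2i (ratio 42.4, 95% counting interval 11.4 to 355), and 3 and 51 in J1 (ratio 15.9, 5.15 to 79.7). Hoxc11, a posterior gene, rose by 3.72 ± 0.57 in J1 and 2.4 ± 0.62 in 3B3-3l (edgeR adjusted p = 2.9e-05 and 0.00289). Hoxc9, which sets thoracic motor neuron identity, rose by 2.25 ± 0.53 in J1 (edgeR adjusted p = 0.00154). Its rise in 3B3-3l, 1.41 ± 0.47 (edgeR adjusted p = 0.0155), was lost with the DESeq2 Wald test (adjusted p = 0.0621) and without 3B3-3l serum replicate 1, 3B3-3l serum replicate 2 or 3B3-3l 2i replicate 3 (edgeR adjusted p = 0.069, 0.064 and 0.0746). Hoxc6 and Hoxc8 did not pass the filter and held 3 to 14 and 1 to 9 reads in a library.

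In HoxB the called genes were Hoxb4, Hoxb9 and Hoxb13. Hoxb9, a gene of rib patterning (ENSMUSG00000020875, chromosome 11, 96271330 to 96276595), had 29, 14 and 13 reads in J1 serum and 113, 104 and 96 in J1 2i, and 19, 13 and 24 against 122, 144 and 134 in 3B3-3l. Its mean went from 0.461 ± 0.2 to 2.44 ± 0.124 CPM in J1 (2.38 ± 0.24, edgeR adjusted p = 2.31e-07) and from 0.475 ± 0.155 to 3.24 ± 0.274 CPM in 3B3-3l (2.77 ± 0.23, edgeR adjusted p = 2.6e-08). The media did not overlap in either line, and serum levels of the lines overlapped.

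Hoxb13, the most 5' gene of the cluster, which acts in the tail and prostate (ENSMUSG00000049604, chromosome 11, 96194316 to 96196610), had 11, 19 and 15 reads in J1 serum and 54, 52 and 65 in J1 2i. In 3B3-3l it had 21, 17 and 6 reads in serum and 106, 126 and 106 in 2i. Levels in 2i were thus apart between the lines while those in serum overlapped. The rise was 1.82 ± 0.29 in J1 (edgeR adjusted p = 4.26e-05) and 2.88 ± 0.27 in 3B3-3l (edgeR adjusted p = 1.21e-07).

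Hoxb4, known for expanding haematopoietic stem cells, stood at 0.437 ± 0.0363 CPM in J1 2i and 0.43 ± 0.0324 CPM in 3B3-3l 2i, and rose by 2.66 ± 0.43 and 1.21 ± 0.36 (edgeR adjusted p = 5.08e-05 and 0.00737). Hoxb7 was tested and not called, with 24 or fewer reads over a J1 group: -0.42 ± 0.56 in J1 and 0 ± 0.52 in 3B3-3l (edgeR adjusted p = 0.531 and 0.998). The other HoxB genes (Hoxb1, Hoxb2, Hoxb3, Hoxb5, Hoxb6 and Hoxb8) did not pass the filter and held at most 8 reads in a library. The annotated span of Hoxb3 contains that of Hoxb4 (3372 shared bases), so reads of Hoxb4 and Hoxb3 may be split by estimation.

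HoxA had 1 member above the filter. Hoxa7, a gene of trunk patterning (ENSMUSG00000038236, chromosome 6, 52215623 to 52218573), had 14, 18 and 14 reads in J1 serum and 49, 58 and 45 in J1 2i, and 4, 8 and 3 against 30, 34 and 19 in 3B3-3l. Here the J1 libraries were the higher ones in both media. The rise was from 0.386 ± 0.0514 to 1.18 ± 0.131 CPM in J1 (1.62 ± 0.25, edgeR adjusted p = 3.66e-05) and from 0.122 ± 0.0556 to 0.672 ± 0.152 CPM in 3B3-3l (2.38 ± 0.34, edgeR adjusted p = 1.19e-05). Of the others, Hoxa3 reached 15 reads in a library, Hoxa10 10, Hoxa4 8, Hoxa5 and Hoxa6 6, Hoxa2 and Hoxa13 5, Hoxa9 4 and Hoxa11 3. The annotated span of Hoxa3 contains Hoxa4, Hoxa5 and Hoxa6, and the genes of a cluster are read from the same strand, so their reads may be split between overlapping transcripts by estimation.

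HoxD was low throughout, and its members gave at most 42 reads in a library. Hoxd13, which shapes the digits and the genital region (ENSMUSG00000001819, chromosome 2, 74668225 to 74671603), had 8, 26 and 12 reads in J1 serum and 36, 20 and 22 in J1 2i. It had 7, 10 and 5 reads in 3B3-3l serum and 18, 24 and 18 in 3B3-3l 2i. The media overlapped in J1, where serum replicate 2 stood above 2 of the 2i libraries, and not in 3B3-3l. The difference was 0.66 ± 0.36 in J1 (edgeR adjusted p = 0.122) and 1.38 ± 0.43 in 3B3-3l (edgeR adjusted p = 0.0104). Leaving out J1 serum replicate 2 brought the J1 value to 1.24 ± 0.38 (edgeR adjusted p = 0.0114). The test of the difference between these effects did not pass (0.72 ± 0.57, edgeR adjusted p = 0.358). Hoxd8 rose by 2.33 ± 0.38 in J1 and 2.36 ± 0.37 in 3B3-3l (edgeR adjusted p = 5.46e-05 and 3.49e-05), to 0.555 ± 0.0886 and 0.621 ± 0.155 CPM in 2i. Hoxd9, a gene of limb and lumbosacral patterning, rose by 2.8 ± 0.49 and 1.86 ± 0.47 (edgeR adjusted p = 0.000112 and 0.00273). Hoxd1, Hoxd10, Hoxd11 and Hoxd12 did not pass the filter, with at most 12, 2, 8 and 1 reads in a library. The annotated spans of Hoxd10 and Hoxd11 share 2744 bases, so their reads may be split by estimation as well.

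The entry called Hoxd3 needs to be read with care. Hoxd3 acts in the upper neck, and its annotated span (ENSMUSG00000079277, chromosome 2, 74711993 to 74748271) contains that of Hoxd4 (74721978 to 74729160), with which it shares 7183 bases on the same strand. In every library the gene count of this entry equalled the sum of the reads of transcripts named Hoxd3 and of those named Hoxd4 in the transcript tables. It had 5, 0 and 1 reads in J1 serum and 14, 10 and 16 in J1 2i. In 3B3-3l it had 2, 4 and 9 reads in serum and 28, 40 and 42 in 2i. Media did not overlap in either line, and the 2i libraries of 3B3-3l lay above those of J1. As given, the entry rose by 2.57 ± 0.66 in J1 and 2.79 ± 0.47 in 3B3-3l (edgeR adjusted p = 0.00277 and 7.36e-05).

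Most of these reads belonged to transcripts named Hoxd4, also a gene of the cervical spine. They made up 63.33% of the group total in J1 serum (6 reads in all), 91.5% in J1 2i, 86.27% in 3B3-3l serum and 69.3% in 3B3-3l 2i. Reads of transcripts named Hoxd3 came to 3.4 over the 3 J1 2i libraries and to 33.8 over the 3 of 3B3-3l 2i, where each library had 7.66 to 16.4. With the entry split by transcript name and the whole table refitted, an alternative chosen after seeing the data, the Hoxd3 share fell below the filter and only Hoxd4 was tested. Hoxd4 then rose by 3.01 ± 0.69 in J1 and 2.46 ± 0.49 in 3B3-3l (edgeR adjusted p = 0.00122 and 0.00033). The reads were assigned to overlapping transcripts by estimation, so the split itself carries an error that was not tested.

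**Figure D4:**
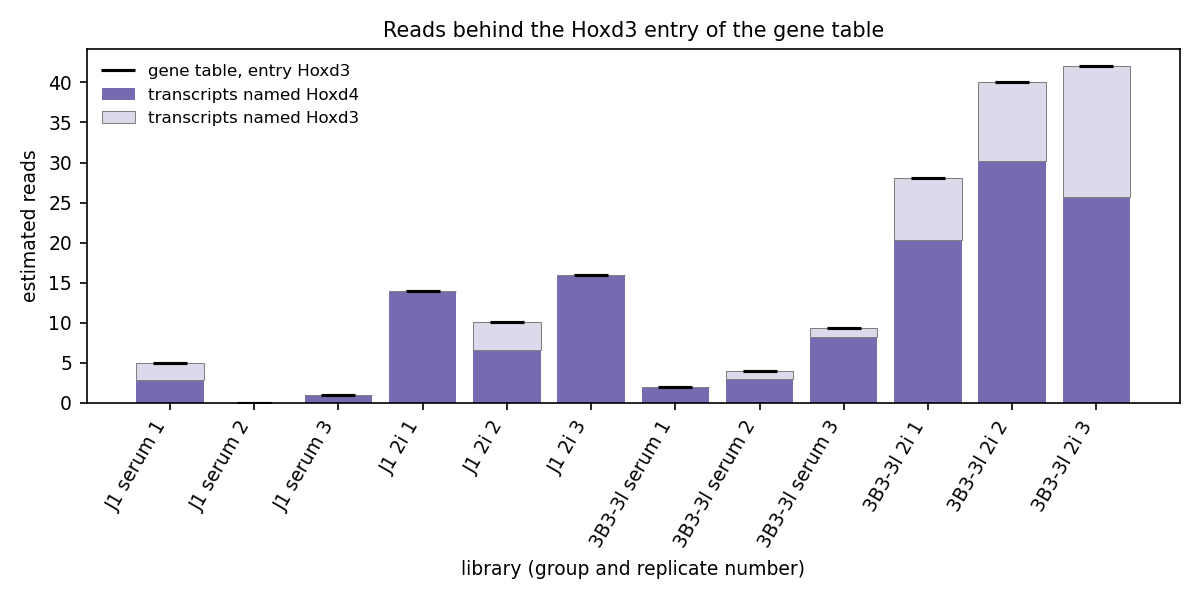
Estimated reads in each library of the transcripts named Hoxd4 (dark purple) and Hoxd3 (light purple), stacked from 0, with the count of the Hoxd3 entry in the gene table as a black dash. The dash sits on top of the stack in all 12 libraries, and Hoxd4 holds most of the stack in each of the 6 libraries in 2i.

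To ask whether the line mattered, 3B3-3l was compared with J1 within each medium. In 2i, Hoxb13, Hoxc4 and the Hoxd3 entry were higher in 3B3-3l, and Hoxa7 and Hoxc11 lower. These were 3 and 2 of the 16 tested, while 45.9% of all genes tested were called, 23% higher and 22.9% lower. In serum, Hoxb4, Hoxc4 and Hoxc13 were higher and Hoxa7 lower, 3 and 1 of 16, while 38.7% of all genes tested were called, 21.5% higher and 17.2% lower. None of these counts of members exceeded the share called over all genes.

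Hoxa7 was the member called lower in 3B3-3l in both media, by -0.82 ± 0.23 in 2i and -1.58 ± 0.37 in serum (edgeR adjusted p = 0.00887 and 0.00328), with no overlap between the libraries listed above. Hoxc4 was called higher in both, by 0.46 ± 0.11 in 2i and 1.8 ± 0.38 in serum (edgeR adjusted p = 0.00354 and 0.00441). Hoxb13 was higher in 3B3-3l in 2i by 1.03 ± 0.22 (edgeR adjusted p = 0.00126), and in serum the difference was -0.02 ± 0.36 (edgeR adjusted p = 0.975). Hoxc13 had the opposite order, its serum difference being 0.84 ± 0.13 (edgeR adjusted p = 0.000121) and its 2i difference 0.07 ± 0.09 (edgeR adjusted p = 0.569). The Hoxd3 entry was higher by 1.51 ± 0.39 in 2i (edgeR adjusted p = 0.00532), and Hoxd4 alone, after the split, by 1.08 ± 0.4 (edgeR adjusted p = 0.0374). In serum the entry differed by 1.29 ± 0.79 (edgeR adjusted p = 0.218), and by 3.03 ± 1.06 without J1 serum replicate 1, which held 5 of the 6 J1 reads (edgeR adjusted p = 0.0428).

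Calls near the threshold were less firm. Hoxc11 in 2i, lower by -1 ± 0.39 (edgeR adjusted p = 0.046), lost its call without the filter, with the DESeq2 Wald test (adjusted p = 0.137), and without J1 2i replicate 1, J1 2i replicate 3 or any 3B3-3l 2i library (edgeR adjusted p of 0.0729 to 0.202). Hoxb4 in serum, higher by 1.43 ± 0.51 (edgeR adjusted p = 0.0358), lost it with the DESeq2 Wald test (adjusted p = 0.0865), without the filter, and without J1 serum replicate 2, J1 serum replicate 3 or 3B3-3l serum replicate 2 (edgeR adjusted p of 0.114 to 0.202). Hoxd13 was not called between lines, with -0.32 ± 0.35 in 2i and -1.04 ± 0.45 in serum (edgeR adjusted p = 0.488 and 0.0805). With J1 serum replicate 1 left out, its serum difference was -1.37 ± 0.42 (edgeR adjusted p = 0.0237).

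**Figure D5:**
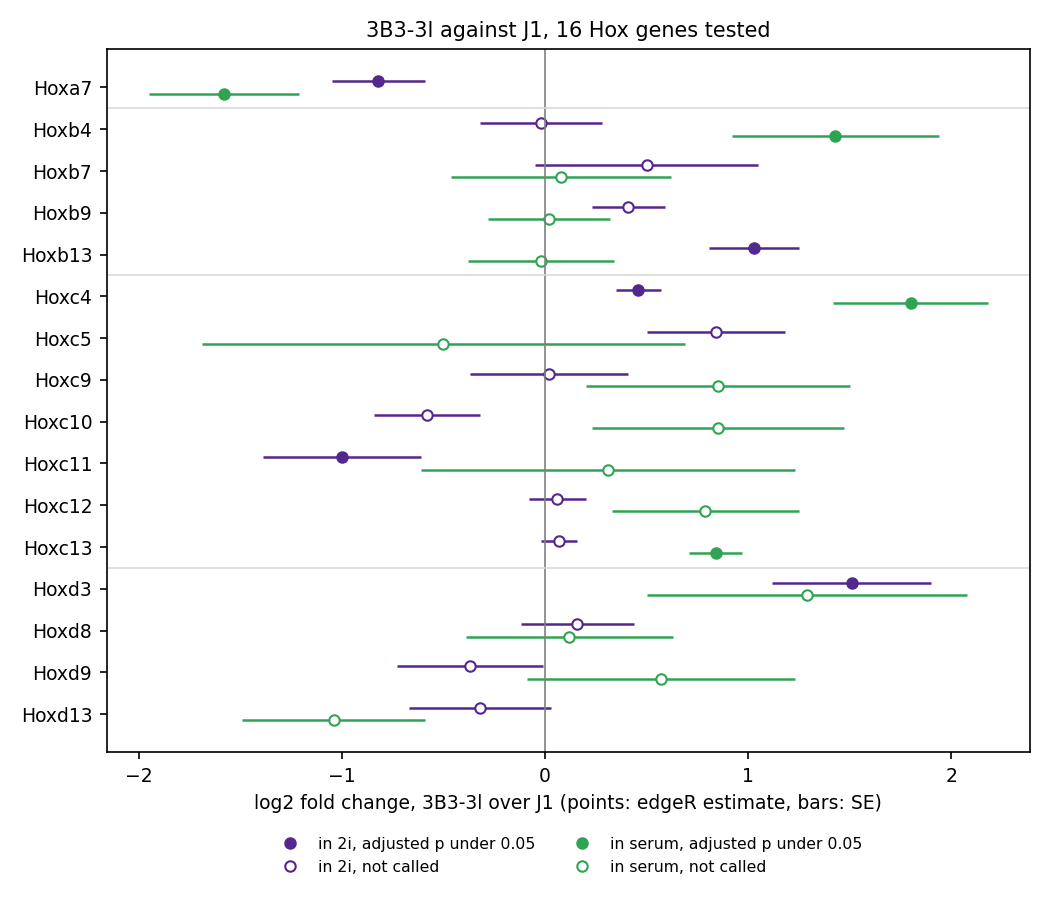
Log2 fold change of 3B3-3l over J1 with its SE for the 16 Hox genes tested, in 2i (purple) and in serum (green), from the edgeR fit to 12 libraries; filled points passed an adjusted p under 0.05. Hoxa7 lies below 0 and Hoxc4 above 0 in both media, and most SE bars are wider in serum, where counts were lower.

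The 2i effects themselves were compared between the lines with an interaction contrast. Of the 16 members tested, 0 were called higher in 3B3-3l and 2 lower, against 16.3% and 18.3% of all genes tested. They were Hoxc13 (-0.78 ± 0.16, edgeR adjusted p = 0.00149) and Hoxc4 (-1.34 ± 0.4, edgeR adjusted p = 0.0481). For both, the serum level was the higher in 3B3-3l. The Hoxc4 call was lost without the filter, with the DESeq2 Wald test (adjusted p = 0.0894) and when any of 8 single libraries was left out (edgeR adjusted p of 0.0547 to 0.162), namely all 3 of J1 serum, J1 2i replicate 2, 3B3-3l serum replicates 2 and 3, and 3B3-3l 2i replicates 2 and 3. Hoxb13 (1.05 ± 0.43, edgeR adjusted p = 0.0678) and Hoxb4 (-1.45 ± 0.59, edgeR adjusted p = 0.0699) came next. Without the filter, 1 member was higher (10.3% of all genes), Hoxb13, and 1 was lower (11%), Hoxc13.

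Other lists of genes are given next, and their counts are to be read against the 33.2% of all genes called higher in 2i and 32.9% lower in J1, and the 32.7% each way in 3B3-3l. Of the 12 mESC markers, 6 rose and 4 fell in J1, and 6 rose and 3 fell in 3B3-3l. The 24 listed fibroblast genes, which feeder cells would add, summed to 204 to 222 CPM in a J1 serum library and 52.7 to 54.1 CPM in J1 2i, and to 247 to 279 and 41.5 to 43.1 CPM in 3B3-3l, which was grown without feeders. Of 18 tested, 16 fell in 2i in each line and 1 rose in J1. Of the 11 defining ones, 2 were at the floor in serum in each line, 6 in J1 2i and 7 in 3B3-3l 2i. Lum was at 0 in J1 serum, and Lum, Dcn and Twist2 were at 0 in 2i in both lines. Others were well above the floor: in serum, Col1a1 averaged 28.1 CPM for J1 and 35.5 CPM for 3B3-3l. Pdgfrb was the gene that rose in J1, from 6.31 ± 0.855 to 19.45 ± 0.896 CPM (1.62 ± 0.1, edgeR adjusted p = 5.85e-10). In 3B3-3l it went from 7.39 ± 0.935 to 7.33 ± 0.107 CPM. Serum, the medium with less Hox RNA, thus had the higher sum of fibroblast transcripts in both lines. The part of these transcripts in the Hox levels was not tested. The 15 listed genes of differentiating cells that were matched summed to 76 to 80.6 CPM in J1 serum and 48.1 to 54.4 CPM in J1 2i, and to 93.3 to 102 and 47.1 to 49.2 CPM in 3B3-3l. Of 13 tested, 6 rose and 5 fell in J1, and 4 rose and 8 fell in 3B3-3l. T, the mesoderm factor brachyury, rose from 0.762 ± 0.279 to 13.2 ± 1.77 CPM in J1 (4.09 ± 0.18, edgeR adjusted p = 1.65e-11), while Pou3f1, Fgf5 and Pax6, genes of the primed epiblast and of neural cells, fell by 4.66 to 5.02 on the log2 scale.

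Regulators known to act on Hox genes were read from lists of the same kind. Caudal factors are direct activators of Hox genes in the posterior embryo. Of 4 tested of 6 in the caudal and ParaHox list, 2 rose and 1 fell in J1, and 2 rose and 2 fell in 3B3-3l. Cdx1 rose from 0.495 ± 0.158 to 59 ± 6.29 CPM in J1 (6.88 ± 0.15, edgeR adjusted p = 4.52e-15) and from 0.435 ± 0.157 to 29.9 ± 0.511 CPM in 3B3-3l (6.09 ± 0.16, edgeR adjusted p = 2.04e-14). Cdx2 rose by 1.9 in J1 and 1.34 in 3B3-3l, to at most 1.34 ± 0.261 CPM, and Cdx4 fell by 1.46 and 1.99 (edgeR adjusted p = 2.08e-05, 0.000884, 0.0186 and 0.000109).

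TALE homeodomain proteins bind DNA together with HOX proteins. Of 11 tested, 1 rose and 7 fell in J1, and 2 rose and 7 fell in 3B3-3l. Meis2 was the large exception to the falls, from 0.98 ± 0.147 to 14.9 ± 0.557 CPM in J1, and in 3B3-3l from 1.33 ± 0.181 to 14.5 ± 0.343 CPM (edgeR adjusted p = 4.14e-14 and 7.78e-14). Pbx3 and Meis3 fell by 0.97 to 1.89 on the log2 scale over both lines. Retinoic acid is a classical inducer of 3' Hox genes. Of 16 tested of 19 in its list, 2 rose and 10 fell in each line, including the receptor Rarg (-2.02 in J1 and -1.15 in 3B3-3l) and the binding proteins Crabp1 (-1.02 and -1.33) and Crabp2 (-1.77 and -2.61; edgeR adjusted p of at most 2.7e-08). The receptor Rxrg went from 1.71 ± 0.0918 CPM in J1 serum and 1.59 ± 0.22 CPM in 3B3-3l serum to below the floor in 2i (edgeR adjusted p = 1.37e-09 and 3.18e-09).

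Chromatin regulators of the clusters were read against the same shares. Of 12 trithorax and H3K27 demethylase genes tested, 3 rose and 3 fell in J1, and 4 rose and 2 fell in 3B3-3l, with Wdr5 (0.68 and 0.89) and Rbbp5 (0.68 and 0.62) among the rises in both. Of 29 Polycomb genes tested, 12 rose and 10 fell in J1, and 14 rose and 10 fell in 3B3-3l. Bmi1 (2.42 and 2.08) rose and Phf19 (-2.55 and -2.99) fell in both lines, and Cbx8 was called in 3B3-3l alone (0.32 and 2.12), with a difference between the lines of 1.8 ± 0.38 (edgeR adjusted p = 0.00171).

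Genes around the clusters were read from a list of their own. Of 27 matched genes inside or beside the clusters, 17 were tested, 10 of which rose and 4 fell in J1, and 8 rose and 4 fell in 3B3-3l. Their median log2 fold change was 0.23 and 0.21, against 0.01 over all genes tested in each line. Among them were Calcoco2 beside HoxB (0.72 and 2.16), Smug1 beside HoxC (0.82 and 0.98) and Skap2 beside HoxA (0.85 and 0.58). Beside HoxD, Mtx2 differed by 0.23 and 0.09 and Lnpk by 0.18 and 0.14. Non-coding RNAs within the clusters were scarce: Hotair in HoxC did not exceed 0.0628 CPM in any group mean, Hottip was listed at 0 in all 12 libraries, and Hotairm1 beside the 3' end of HoxA reached 0.516 ± 0.159 CPM in J1 2i and was not called in either line (edgeR adjusted p = 0.0681 and 0.41).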

How the data were processed

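Poly(A) RNA was made into strand-specific libraries (TruSeq stranded mRNA) and sequenced on a NextSeq in pools; the pool of each library was not given in the sources used here. The authors estimated counts per transcript with Sailfish on mm10 and summed them to genes with tximport. The deposited tables hold these estimated counts, for 39017 genes and 94647 transcripts, with 3 libraries in each of 4 groups. The estimated counts were rounded to whole numbers here. Library totals of 37050652 to 44515395 set the floor of 3 counts per library.

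Genes were tested with the quasi-likelihood test of edgeR 4.0.16 in R 4.3.3, with filterByExpr, TMM factors (0.97 to 1.038), 1 coefficient per group over all 12 libraries and Benjamini-Hochberg adjustment over the 17885 genes tested. SE is the log2 fold change divided by the root of the F statistic. The fitting code was tested on simulated data. CPM, RPKM, sums and figures were computed with Python 3.11.15, pandas 2.3.3 and scipy 1.17.1. Ratios of summed counts carry exact 95% intervals. The 5 comparisons share libraries, so their calls were not set against each other except through the interaction contrast. The study names replicates as biological, and the p-values measure the spread between these libraries.

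The members, the other gene lists and the tests were chosen with earlier results of these data known. Values in every library were given for members called in any comparison whose highest group averaged 1 CPM or more, and for Hoxd3 and Hoxd13. Of other lists, called genes with such a level could be named, the 4 most changed with medium first, and Hotair, Hottip and Hotairm1 were named outside this rule after their values were seen. One further gene that fits the naming rule, and some genes of the other lists, are not reported here. Alternatives were DESeq2 size factors, the Wald test of DESeq2 1.42.0, other filters on low counts, a fit to the 6 compared libraries alone, a replicate block, each library left out in turn, other floors and other sums, and, chosen after seeing the data, the split of Hoxd3 and Hoxd4 reads. Gene spans and start regions are those of RefSeq on GRCm38.p6.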

Additional observations from a re-analysis of the deposited data

Results flagged for a closer look

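For Hoxc13 and Hoxc4 the effect of 2i differed between the lines by the interaction contrast of the edgeR fit. The rise of Hoxc13 was smaller in 3B3-3l than in J1 by a log2 difference of -0.78 ± 0.16 SE (edgeR adjusted p = 0.00149), and that of Hoxc4 by -1.34 ± 0.4 (edgeR adjusted p = 0.0481). The Hoxc4 call was lost without the filter on low counts (edgeR adjusted p = 0.0746), with the DESeq2 Wald test (adjusted p = 0.0894) and without 8 of the 12 single libraries (edgeR adjusted p of 0.0547 to 0.162). In both genes the serum level was higher in 3B3-3l, and for Hoxc4 it rested on 7 reads in J1 and 25 in 3B3-3l. Serum J1 cells were grown on feeders and serum 3B3-3l cells on gelatin, so line and culture surface cannot be told apart there.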

How the results depend on the processing

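Of the single-gene values of tested members under alternatives, 986 stayed on the same side of the threshold, 29 lost a call and 11 gained one. Among values called in the main fit or the alternative, 0 reversed direction. A change of sign in a value called in neither was counted as unchanged. Members that an alternative no longer tested are not in these numbers. The lost calls were of Hoxc4 (the difference of the 2i effects), Hoxc11, Hoxb4 and Hoxc9. Depth limits the 6 members at the floor in all 12 libraries. Left out in turn, single libraries gave 14 to 15 members higher in 2i in J1 and 14 to 15 in 3B3-3l. In 2i, 3 to 3 members were higher and 1 to 2 lower in 3B3-3l than in J1, and in serum 2 to 4 higher and 1 to 2 lower. For the difference of the 2i effects, 0 to 1 were higher and 1 to 2 lower.

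With the replicate number as a block, 14 members in J1 and 15 in 3B3-3l rose in 2i, 3 were higher and 1 lower between lines in 2i, 2 higher and 1 lower in serum, and 0 higher and 1 lower in the difference of the 2i effects. The calls it ended were Hoxc11 between lines in 2i (edgeR adjusted p = 0.0707), Hoxb4 between lines in serum (0.0518) and Hoxc4 in the difference (0.0519). Libraries that share a number did not deviate together (correlation -0.22 to 0.098 over 18 pairs, and -0.356 to 0.335 over 36 pairs with different numbers), so the numbers do not pair them.

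A filter of at least 10 counts in every library leaves out members low in serum by construction. Only 2 members, Hoxb9 and Hoxc13, passed it, and both rose in each line. Of these 2, 0 were higher and 0 lower between lines in 2i, 1 higher and 0 lower in serum, and 1 lower in the difference. With only the 6 libraries compared, 12 members rose in 2i in J1, against 14 in the main fit. Hoxc9 and Hoxd3 are missing from that count because they were not tested in this setting. In that setting 5 were higher in 3B3-3l in 2i, with Hoxb9 and Hoxc5 gained, and 1 in serum. No member tested in this setting lost a call. With no filter, 1 was lower in 2i, and 1 was higher and 1 lower in the difference. With the DESeq2 Wald test, 1 was lower in 2i and 1 lower in the difference.

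A floor of 1 count held 6 members in J1 serum, 5 in J1 2i, 6 in 3B3-3l serum and 6 in 3B3-3l 2i, and a floor of 10 held 30, 21, 32 and 21. In the same order, the sums without the highest member were 0.579, 0.967, 0.414 and 0.504 CPM for HoxA without Hoxa7, 0.999, 2.02, 1.02 and 3.53 for HoxB without Hoxb9, and 0.467, 8.54, 0.74 and 9.85 for HoxC without Hoxc13. HoxD without Hoxd13 summed to 0.538 CPM in J1 serum, 1.53 in J1 2i and 2.16 in 3B3-3l 2i. Per length, the sums were 0.551, 1.31, 0.299 and 0.677 RPKM for HoxA, 0.829, 2.07, 0.789 and 3.17 for HoxB, 0.9, 10.4, 1.55 and 11.2 for HoxC, and 0.449, 1.27, 0.345 and 1.7 for HoxD. In each of these sums 2i lay above serum in both lines.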
